A study of Mus musculus with 24 samples.

Results

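The genes that encode the NMDA receptor subunits Grin1, Grin2a, Grin2b, Grin2c, Grin2d and Grin3a were followed in the hippocampus of wild-type (WT) mice and of mice in which the nuclear kinase MSK1 is kinase dead (KD). The genes were chosen by symbol, as 6 of the 49568 gene symbols in the count files, and were read in 22 of the 24 libraries, the others (33B and 34B) having failed the quality control of the study. The 4 groups were WT mice in standard housing (WT SH, n = 6 libraries), WT mice in an enriched environment (WT EE, n = 5), KD mice in standard housing (KD SH, n = 6) and KD mice in an enriched environment (KD EE, n = 5). All mice were untrained males on a C57-Bl/6J background, and the labels give an age of 12 weeks. Enriched mice were born and reared in large cages with a running wheel and toys that were changed and moved. Their cages also held additional dams at birth and larger groups of males than standard cages, so that these go with housing. The cage and litter of each library are not given in the sources used here. The KD allele is a homozygous point mutation in the endogenous gene that inactivates the N-terminal kinase domain. The WT and KD mice came from separate lines and not from the same litters, so that genotype and line cannot be told apart. The labels give the libraries as separate samples of whole hippocampus but do not say that each is 1 mouse, so that the p-values measure the spread between libraries.

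NMDA receptors are glutamate-gated channels that open when glutamate and a coagonist, glycine or D-serine, are bound and depolarization has relieved the magnesium block. Each receptor holds the obligatory GluN1 subunit (Grin1) with GluN2 subunits (Grin2a to Grin2d), which set the kinetics of the channel, or with GluN3 subunits (Grin3a, Grin3b), which lower its calcium permeability. In the forebrain GluN2B dominates early in life and GluN2A joins it as circuits mature, while GluN2C and GluN2D are more prominent in other regions and in interneurons. Calcium entry through these receptors starts many forms of hippocampal plasticity and activates the pathways that lead to MSK1. The comparisons asked whether the transcripts of the subunits differed with housing, with the MSK1 mutation, or with both.

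The counts on genes were between 8911999 and 56752074 for each library, and every member was counted in every library, with 227 counts of Grin2d as the lowest value and 53710 counts of Grin2b as the highest. Levels are given as CPM, the counts of a gene relative to all counts of its library, scaled by the trimmed mean of M-values (TMM), and 3 counts stand for 0.0529 to 0.337 CPM. All 6 members were among the 18482 genes tested. Grin3b, the remaining gene of the family, was counted 4 to 18 times in each library (0.149 to 0.779 CPM) and was not tested. The transcript of MSK1 itself, Rps6ka5, was at 19.3 to 29.5 CPM in all 22 libraries, and since the KD allele is a point mutation its level does not check the genotype labels. The neuronal markers of the hippocampus were present in every library, with the 4 CA1 markers summing to 484 to 696 CPM, and the cerebellar markers summed to 0.445 to 2.22 CPM. Some libraries stood apart in markers of neighboring tissue. The 8 thalamic markers summed to 487 CPM in library 12 (WT SH) against 135 to 187 CPM in the others, the 9 striatal markers to 376 CPM in library 14 (WT SH), and the 10 choroid plexus markers to between 38.03 and 5722 CPM. The choroid plexus sums differed with housing, although the groups overlapped. Their medians were 71.8 CPM in WT SH and 132 in KD SH, against 4098 in WT EE and 2227 in KD EE. The housing comparisons therefore carry a difference in choroid plexus content. Its part in the fold changes was not tested beyond fits with the choroid plexus score as a covariate. Library 35A (WT EE) had 14.2% of its fragments in no gene, against 10.05% to 12.3% elsewhere. The 5 lettered libraries that were used are all from EE mice, and what the letters stand for is not given in the sources used here, so that the letters and enrichment are told apart only within the EE groups.

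On the GRCm38 build all 6 genes lie on the minus strand. Grin1 is at chr2:25291181-25319187, Grin2a at chr16:9567898-9995560, Grin2b at chr6:135713233-136173511, Grin2c at chr11:115249169-115267243, Grin2d at chr7:45831883-45878378 and Grin3a at chr4:49661611-49845744. Grin1, Grin2c and Grin2d are short genes with GC-rich transcripts, with 59.4%, 62.1% and 65.0% GC in the longest transcript. Grin2a, Grin2b and Grin3a span 427.7 kb, 460.3 kb and 184.1 kb and have 44.8%, 45.7% and 49.2% GC. Most of the exon length of Grin2b is untranslated, at 20.3 kb of UTR against 4.45 kb of coding sequence, and Grin2a holds 10.6 kb of UTR against 4.39 kb. For Grin1, 13.5% of the exon bases overlap the antisense gene Grin1os, which was at 7.80 to 18.5 CPM. The counting ignored strand, so reads from these shared bases cannot be assigned, and 9.66% of the exon bases of Grin2d are shared with Gm45441.

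The 250 bases before the start of Grin1 and Grin2c are printed, as promoter entries were found for only 3 of the 6 members, these and Grin2d. The cAMP response element was looked for since MSK1 acts on CREB, the factor that binds it. They are the RefSeq sequences on GRCm38.p6, minus strand, chr2:25319188-25319437 for Grin1 and chr11:115267244-115267493 for Grin2c. The entry of Grin2d starts inside the span that GENCODE gives the gene and is not printed. Capitals mark the short form of the cAMP response element (TGACG, or CGTCA on the other strand) and the GC box (GGGCGG, or CCGCCC on the other strand).
Grin1: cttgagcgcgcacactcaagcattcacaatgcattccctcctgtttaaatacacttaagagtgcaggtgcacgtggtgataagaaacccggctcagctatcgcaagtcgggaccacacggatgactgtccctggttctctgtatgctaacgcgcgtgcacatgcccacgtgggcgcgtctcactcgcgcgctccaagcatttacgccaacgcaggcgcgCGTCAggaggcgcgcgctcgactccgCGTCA
Grin2c: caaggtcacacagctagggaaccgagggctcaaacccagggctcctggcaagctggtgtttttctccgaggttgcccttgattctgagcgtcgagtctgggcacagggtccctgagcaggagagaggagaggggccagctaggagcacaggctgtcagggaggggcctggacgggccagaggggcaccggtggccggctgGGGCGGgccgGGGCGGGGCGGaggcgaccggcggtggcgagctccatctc
The Grin1 window held the short element at 31 to 27 and at 5 to 1 bases before the start, both in the CGTCA orientation, and no GC box. The Grin2c window held 3 GC boxes between 50 and 30 bases before the start, 2 of which share a base, and no short element. Over 32851 mouse promoters of this length, 17.8% held the short element and 32.7% a GC box. The full element (TGACGTCA), which contains the short one on both strands, was in 1.55%, and the EGR site (GCGTGGGCG, or CGCCCACGC on the other strand) in 0.536%, and neither was in these windows.

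Levels between members were compared per length, as CPM per kb of merged exons. Grin1, the subunit that every receptor needs, was highest at 39.7 ± 3.68 CPM per kb (SD, n = 22), and Grin2b followed at 29.7 ± 4.70. Grin2a was at 17.2 ± 3.32, Grin2c at 12.9 ± 1.75, Grin3a at 4.26 ± 0.334 and Grin2d at 2.98 ± 0.484 CPM per kb. The order held within nearly every library. Grin1 was above Grin2b and Grin2b above Grin2a in 22 of 22 libraries, Grin2a above Grin2c in 21, Grin2c above Grin3a in 22 and Grin3a above Grin2d in 20. Across libraries the ranges of these neighbors overlapped, other than those of Grin2c (lowest 9.92) and Grin3a (highest 4.72). The same order was found per kb of the longest transcript, in which Grin1 was at 90.1 CPM per kb, Grin2b at 30.7, Grin2a at 21.1, Grin2c at 13.3, Grin3a at 6.98 and Grin2d at 3.65. The distance between Grin1 and the rest thus depends on the length used. Of the GluN2 transcripts per length, Grin2b made up 47.2% ± 3.84 (SD, n = 22), Grin2a 27.3% ± 2.77, Grin2c 20.7% ± 3.17 and Grin2d 4.80% ± 0.925.

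**Figure D1:**
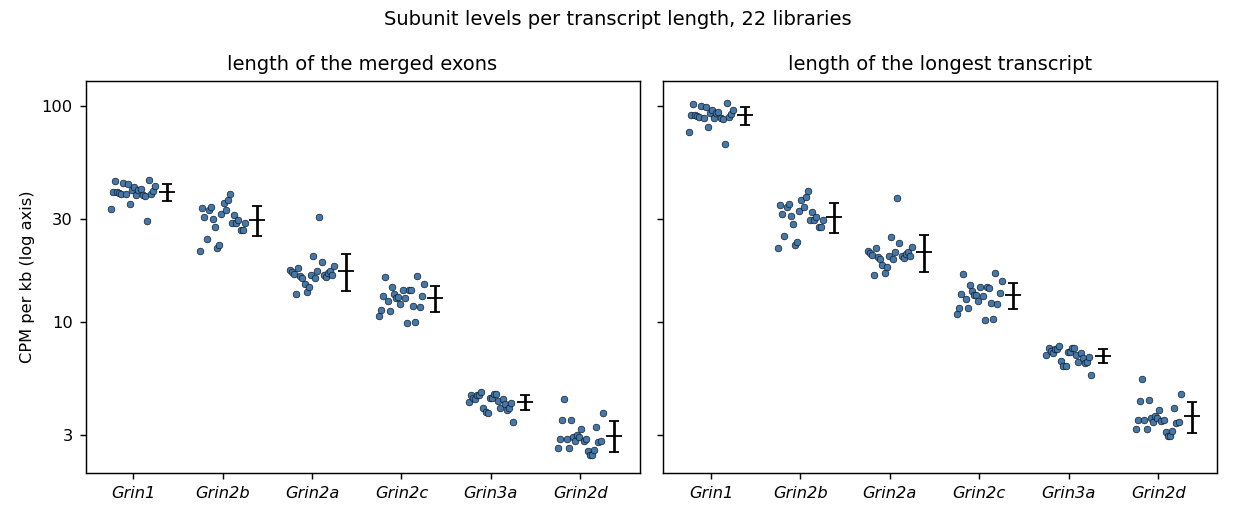
CPM per kb on a log axis for each subunit gene, per kb of merged exons (left) and of the longest transcript (right). Points are the 22 libraries and bars the mean ± SD. The order from Grin1 to Grin2d was the same on both sides, but Grin1 was at 39.7 on the left and 90.1 on the right.

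The members were not equally steady. Over the 22 libraries the coefficient of variation of CPM was 7.85% for Grin3a and 9.27% for Grin1, close to the median of 9.21% over the 10219 genes at 10 CPM or more. It was 13.6% for Grin2c, 15.8% for Grin2b, 16.3% for Grin2d and 19.3% for Grin2a. Grin2a varied more than 96.2% of those genes, and a single library, 35A, held its highest value.

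None of the 6 members passed the threshold in any of the 7 comparisons, and the groups overlapped for every member. A gene was called where edgeR's quasi-likelihood test gave an adjusted p up to 0.05 and the log2 fold change reached 0.38 in either direction. For housing in WT, housing in KD, genotype in SH and genotype in EE, 0 of 6 members and 0% of all genes were called. For the housing effect averaged over genotypes 0 of 6 members and 0.146% of all genes (27) were called, and for the genotype effect averaged over housings and for the interaction of both, 0 of 6 and 0%. At an unadjusted p under 0.05, without regard to direction, the shares of all genes were 8.65% for housing in WT, 9.63% for housing in KD, 5.76% for genotype in SH, 2.61% for genotype in EE, 16.1% for housing over both genotypes, 6.06% for genotype over both housings and 2.04% for the interaction. Of the 6 members, 3 were at that level for genotype in SH, 1 for genotype over both housings and 0 in the other 5 comparisons, and DESeq2 called 0 of 6 in each of the 7. Groups separated without overlap for 0 of 6 members, against 0.46% of all genes upward and 0.73% downward for housing in WT, 0.233% and 0.314% for housing in KD, 0.173% and 0.103% for genotype in SH, and 0.151% and 0.173% for genotype in EE. Over the 4 comparisons of pairs of groups, the 95% intervals of the members reached no further than an absolute log2 fold change of 0.52. That bound does not show that the levels were alike.

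**Figure D2:**
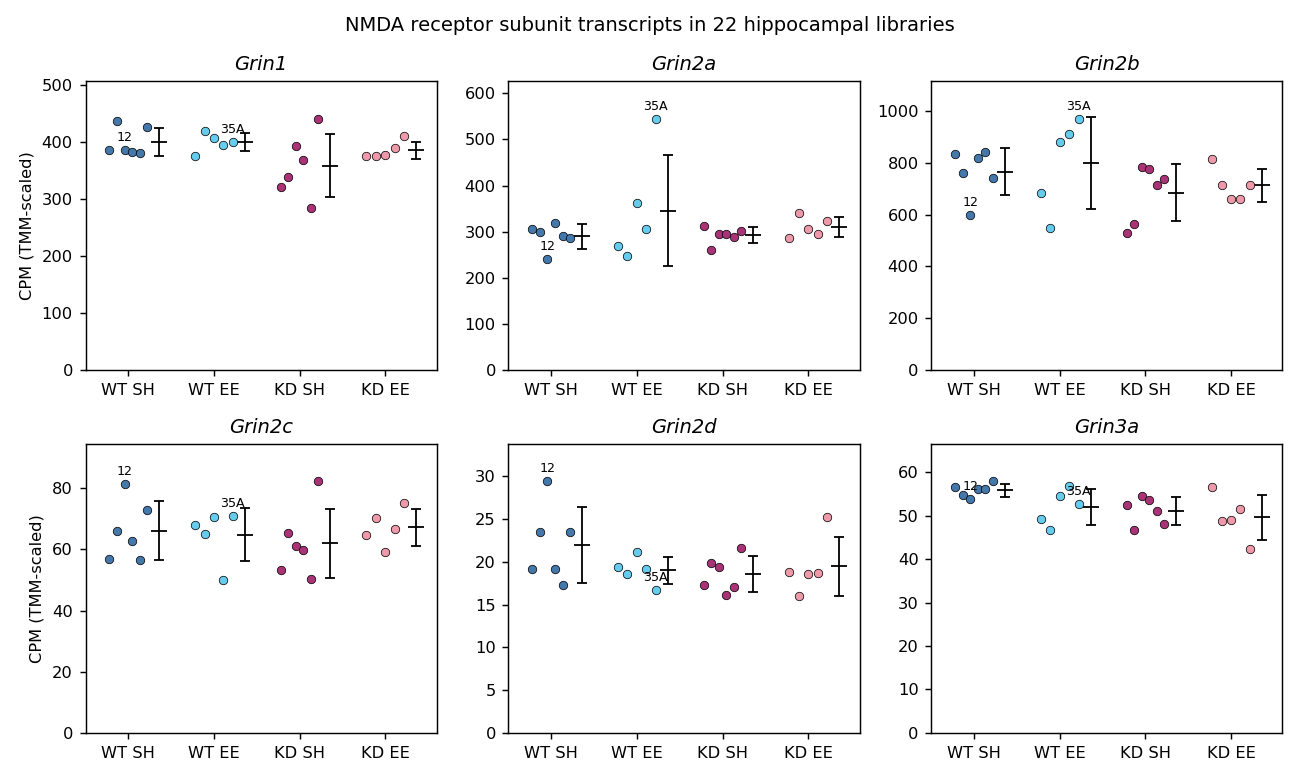
CPM of each subunit gene in every library by group, with the mean ± SD beside the points and libraries 12 (WT SH) and 35A (WT EE) named. The groups overlap for all 6 genes, Grin2a is at 545 CPM in 35A and Grin2d is at 29.4 CPM in 12.

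Grin1 was at 400 ± 24.8 CPM in WT SH (SD, n = 6), 400 ± 15.95 in WT EE (n = 5), 359 ± 55.2 in KD SH (n = 6) and 386 ± 14.9 in KD EE (n = 5). In KD SH the lowest, median and highest libraries were at 285, 354 and 441 CPM, and in WT SH at 380, 386 and 436. The KD SH range thus held the whole WT SH range. In WT EE the libraries were at 377, 420, 407, 395 and 400 CPM, and in KD EE at 378, 390, 410, 376 and 375. KD against WT in SH gave a log2 fold change of -0.16 for Grin1 (SE 0.07, unadjusted p = 0.0418 and adjusted p = 0.811 in edgeR). With an offset for the GC content of transcripts, chosen after seeing the data, it was -0.11. Without library 5 (KD SH), which held the lowest value, the log2 fold change was -0.10 (SE 0.06), and without library 6 (KD SH), which held the highest, it was -0.22 (SE 0.06, unadjusted p = 0.00206, adjusted p = 0.357 in edgeR). In library 5 the dentate granule markers summed to 220 CPM against 309 or more in the others, and the CA1 markers to 484 against 581 or more, and the part of this in the level of Grin1 was not tested. With enrichment the log2 fold change of Grin1 was 0.00 in WT (95% interval -0.16 to 0.16) and 0.10 in KD (-0.05 to 0.26).

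Grin2a, whose subunit marks mature hippocampal synapses, had the largest log2 fold change of the members with enrichment in WT. It was at 290 ± 26.7 CPM in WT SH (SD, n = 6) and 346 ± 120 in WT EE (n = 5). In WT EE the libraries were at 269, 247, 363, 307 and 545 CPM, and in WT SH the lowest, median and highest were at 241, 295 and 320. Of the 5 enriched libraries, 2 were below the standard median and 2 above the standard maximum. The log2 fold change was 0.25 (SE 0.13, unadjusted p = 0.0603, adjusted p = 0.601 in edgeR). Without 35A, at 545 CPM 1.84 times the mean of the other WT EE libraries, it was 0.02 (SE 0.09). In the 17 libraries that the study kept, which leave out 35A and 31B, the libraries with the highest Grin2a in WT EE, it was -0.13 (SE 0.07, adjusted p = 0.449). The direction in WT therefore turned with the choice of libraries. The study reached the 17 partly by dropping libraries that correlated poorly within their group. The p-values in the 17 libraries do not allow for that choice.

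The direction of Grin2a also turned with the choice of libraries between genotypes. KD EE was at 310 ± 21.6 CPM (SD, n = 5), with libraries at 307, 295, 323, 287 and 340, and KD SH at 293 ± 17.3 (n = 6). KD against WT in EE gave a log2 fold change of -0.16 (SE 0.14), but 0.07 (SE 0.09) without 35A and 0.16 (SE 0.08, unadjusted p = 0.0414, adjusted p = 0.771 in edgeR) in the 17 libraries. With the choroid plexus score as a covariate the fold change with enrichment in WT was 0.37 (SE 0.10, unadjusted p = 0.00106, adjusted p = 0.351). In KD the fold change of Grin2a with enrichment was 0.09 (95% interval -0.18 to 0.35), and with that covariate 0.30 (SE 0.11, unadjusted p = 0.00955, adjusted p = 0.280 in edgeR). The choroid plexus markers summed to 58.1 and 68.6 CPM in 35A and 31B and to 4098 to 5290 CPM in the other WT EE libraries, so the high Grin2a values lay with the low choroid values in this group. The part of either in the other was not tested.

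Grin2b was the most abundant GluN2 transcript in every group. It was at 766 ± 90.9 CPM in WT SH (SD, n = 6), 798 ± 177 in WT EE (n = 5), 684 ± 110 in KD SH (n = 6) and 713 ± 63.0 in KD EE (n = 5). The WT EE libraries were at 682, 548, 880, 912 and 970 CPM and in KD EE at 659, 661, 714, 814 and 715. The lowest, median and highest libraries were at 600, 790 and 840 in WT SH and at 528, 726 and 782 in KD SH. The KD libraries therefore lay within or below the WT span, and the groups overlapped broadly. The log2 fold change of KD against WT was -0.16 in SH (95% interval -0.41 to 0.08) and -0.16 in EE (-0.43 to 0.11), and with enrichment it was 0.06 in WT (-0.20 to 0.32) and 0.06 in KD (-0.20 to 0.32). In WT the enrichment value was -0.02 without 35A and -0.16 in the 17 libraries, and without the lettered libraries it was -0.31. That last setting also turned KD against WT in EE to 0.14 (95% interval -0.19 to 0.46).

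Grin2c, a subunit gene better known from the cerebellum and from glia, was at 66.1 ± 9.67 CPM in WT SH (SD, n = 6), 64.8 ± 8.64 in WT EE (n = 5), 62.0 ± 11.3 in KD SH (n = 6) and 67.2 ± 6.08 in KD EE (n = 5). The WT EE libraries were at 67.8, 65.0, 70.6, 49.95 and 70.8 CPM, and in KD EE at 59.0, 66.5, 75.2, 64.8 and 70.3. The lowest, median and highest were at 56.7, 64.4 and 81.5 in WT SH and at 50.4, 60.3 and 82.2 in KD SH. All 4 groups covered much the same span. Its log2 fold changes were between -0.09 (KD against WT in SH) and 0.11 (enrichment in KD) in the 4 comparisons.

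Grin2d, in the hippocampus mainly a subunit of interneurons, had the lowest level of the members. It was at 22.003 ± 4.42 CPM in WT SH (SD, n = 6), 19.0 ± 1.59 in WT EE (n = 5), 18.6 ± 2.09 in KD SH (n = 6) and 19.5 ± 3.43 in KD EE (n = 5). In WT SH the lowest, median and highest libraries were at 17.3, 21.3 and 29.4 CPM, and in KD SH at 16.1, 18.4 and 21.7. WT SH was thus the highest group on average, through its upper libraries. The WT EE libraries were at 19.5, 18.6, 21.2, 19.1 and 16.8 CPM, and in KD EE at 18.6, 18.7, 25.3, 18.8 and 16.05. KD against WT in SH gave a log2 fold change of -0.24 (SE 0.11, unadjusted p = 0.0431, adjusted p = 0.811 in edgeR), and enrichment in WT gave -0.21 (SE 0.12, unadjusted p = 0.0898, adjusted p = 0.657). Both rest in part on library 12, the one with high thalamic markers. There Grin2d was 1.43 times the mean of the other 5 WT SH libraries, Grin2c 1.29 times, Grin2a 0.803 times and Grin2b 0.750 times. Without library 12 the values of Grin2d were -0.14 (SE 0.10) and -0.11 (SE 0.11), and without library 14, the lowest of WT SH, they were -0.30 (SE 0.11, unadjusted p = 0.0120, adjusted p = 0.758 in edgeR) and -0.27 (SE 0.12, unadjusted p = 0.0281, adjusted p = 0.698). The part of thalamic tissue in the level of Grin2d was not tested. The interneuron markers summed to 755 to 957 CPM over the 22 libraries. Pearson's r of Grin2d with their score, the mean log2 CPM of the markers, was -0.05. With the CA3 score it was 0.64, and neither was tested.

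Grin3a, the subunit gene with the lowest variation, was at 55.9 ± 1.43 CPM in WT SH (SD, n = 6), 52.0 ± 4.05 in WT EE (n = 5), 51.1 ± 3.14 in KD SH (n = 6) and 49.7 ± 5.19 in KD EE (n = 5). The lowest, median and highest libraries were at 53.8, 56.1 and 57.9 CPM in WT SH and at 46.6, 51.8 and 54.5 in KD SH. Of the 6 KD SH libraries, 1 reached into the WT SH range. In WT EE the libraries were at 49.2, 46.8, 54.5, 56.9 and 52.7 CPM, and in KD EE at 49.0, 51.5, 42.3, 56.7 and 48.8. KD against WT in SH gave a log2 fold change of -0.13 (SE 0.06, unadjusted p = 0.0424, adjusted p = 0.811 in edgeR), and it lay between -0.15 and -0.10 with any library left out. Averaged over housings it was -0.10 (SE 0.05, unadjusted p = 0.0442, adjusted p = 0.803).

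Read as a family, KD against WT under standard housing gave a log2 fold change below 0 for 5 of 6 members, where 47.8% of all genes were below 0, and the median was -0.14 against 0.01 over all genes tested. At an unadjusted p under 0.05, 3 of 6 members were lower (Grin1, Grin2d, Grin3a) and 0 higher, against 2.81% of all genes lower, and none was called after adjustment. With an offset for the GC content of transcripts, added after seeing the data, 2 of 6 members were lower at that level, against 3.15% of all genes, and in the 17 libraries 0 of 6, against 2.35%. In EE the KD value was below 0 for 4 of 6, where 51.0% of all genes were, with 0 of 6 at an unadjusted p under 0.05. The interaction, which tests whether the effect of enrichment differed between genotypes, was widest for Grin2d (log2 0.26, SE 0.17, unadjusted p = 0.136, adjusted p = 0.999962 in edgeR).

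**Figure D3:**
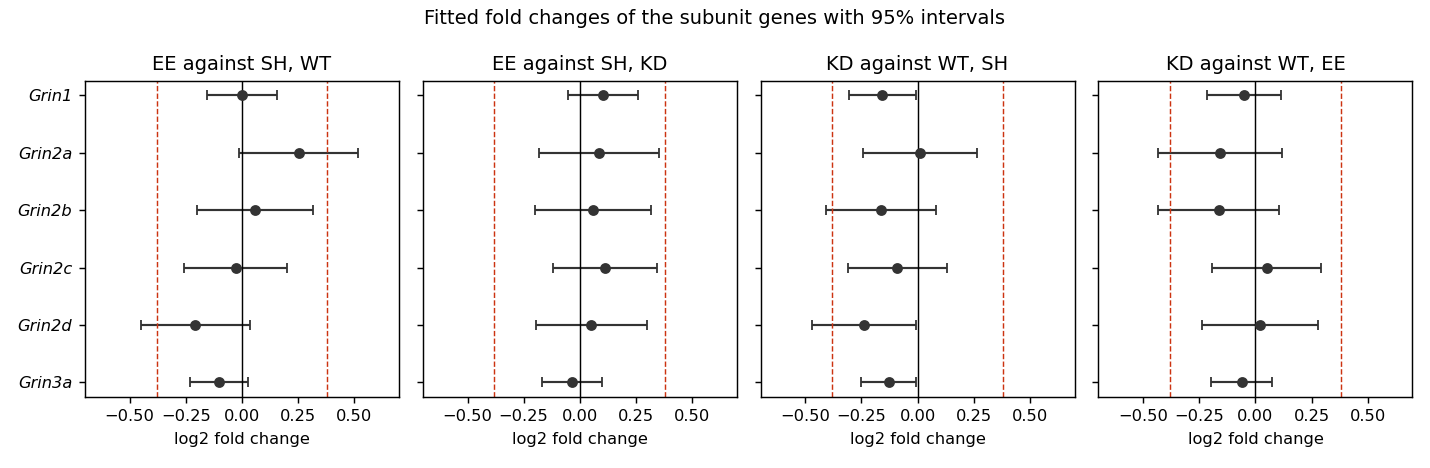
Fitted log2 fold changes of the 6 subunit genes with 95% intervals in the 4 comparisons, with dashed lines at the threshold of 0.38 in either direction. In KD against WT under SH the intervals of Grin1, Grin2d and Grin3a end just below 0, and no estimate lies beyond the dashed lines.

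With enrichment, in WT 3 of 6 were below 0, where 47.9% of all genes were, and the median was -0.01. In KD 1 of 6 was below 0, where 49.1% of all genes were, and the median was 0.07. In the 17 libraries 6 of 6 were below 0 in WT, where 50.5% of all genes were, with log2 fold changes between -0.16 and -0.02 and none of them at an unadjusted p under 0.05 (13.7% of all genes). In that set 3.55% of all genes were called for housing in WT and 1.74% for housing in KD, and 0 of 6 members in either. The comparisons of housing in WT and genotype in SH share the WT SH libraries.

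The ratio of Grin2a to Grin2b counts does not depend on how libraries are scaled. It is a ratio of RNA counts, not corrected for length (17.9 and 24.8 kb of merged exons), and the make-up of the receptor protein was not measured. The ratio was 0.381 ± 0.0205 in WT SH (SD, n = 6), 0.431 ± 0.0839 in WT EE (n = 5), 0.437 ± 0.0808 in KD SH (n = 6) and 0.439 ± 0.0496 in KD EE (n = 5). In WT EE the libraries were at 0.395, 0.450, 0.413, 0.336 and 0.562, and in KD EE at 0.466, 0.446, 0.453, 0.352 and 0.475. The lowest, median and highest were 0.347, 0.389 and 0.402 in WT SH and 0.378, 0.406 and 0.591 in KD SH. The SD was lowest in WT SH, and the groups overlapped. Exact permutation tests, two-sided, of the log2 ratio gave p = 0.221 for housing in WT, 0.905 for housing in KD, 0.0823 for genotype in SH and 0.817 for genotype in EE. Adjusted over the 4 tests these were 0.442, 0.905, 0.329 and 0.905, and the smallest p that these designs allow are 0.00433, 0.00433, 0.00216 and 0.00794. For genotype in SH the log2 ratio was higher by 0.18 in KD, and with any KD SH library left out the difference lay between 0.09 (without library 1, at 0.591) and 0.22 (without library 3, exact permutation p = 0.0476, adjusted p = 0.190). For housing in WT the log2 ratio differed by 0.16, which became 0.24 without 33A (exact permutation p = 0.0190, adjusted p = 0.0762) and 0.06 without 35A (exact permutation p = 0.486).

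**Figure D4:**
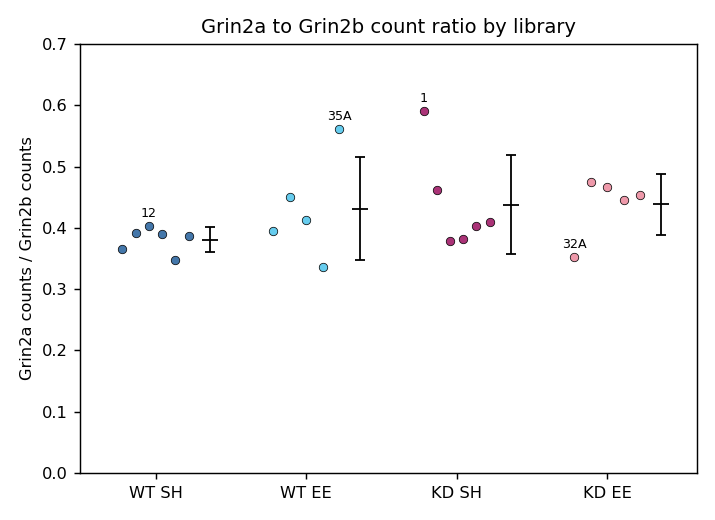
Ratio of Grin2a to Grin2b counts in each library by group, with the mean ± SD beside the points and 4 libraries named. WT SH spans 0.347 to 0.402, and the values of 0.591 (library 1) and 0.562 (35A) lie above all other libraries.

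Between libraries, the members with high GC content tended to vary together. Over the 22 libraries Pearson's r of log2 CPM was 0.61 for Grin2c with Grin2d, 0.60 for Grin1 with Grin2c and 0.46 for Grin1 with Grin2d. Among the members of lower GC content it was 0.61 for Grin2a with Grin2b and 0.53 for Grin2b with Grin3a, but 0.08 for Grin2a with Grin3a. Between the classes it ran from -0.33, for Grin2a with Grin2d and for Grin2c with Grin3a, to 0.30 for Grin1 with Grin2b. With the group means taken off, it was 0.63 for Grin2c with Grin2d, 0.60 for Grin1 with Grin2c and 0.62 for Grin2a with Grin2b. Without libraries 12 and 35A, Grin2a with Grin2b was at 0.49 and Grin2a with Grin2d at 0.07. These are descriptions over libraries that also differ in depth, and no test was made. The part of depth or base composition in them was not tested.

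The GC slope of a library is the slope, over all genes, of the deviation of log2 CPM on GC content. It lay between -0.27 (library 5, KD SH) and 0.15 (library 17, WT EE) per 10 points of GC. Its correlation over the 22 libraries was 0.75 with Grin1, 0.67 with Grin2c and 0.48 with Grin2d, and -0.21 with Grin2a, -0.19 with Grin2b and -0.15 with Grin3a. The slope of the same deviation on exon length correlated with Grin2b, the longest of the transcripts, at 0.67, and with Grin1 at -0.06. The share of fragments in no gene correlated with Grin2a at 0.71, and at 0.23 without 35A. Marker scores of tissues and cell types also correlated with the members. Taken for each member, the strongest were 0.73 for Grin1 with CA1, 0.64 for Grin2d with CA3 and -0.64 for Grin2a with oligodendrocytes. Grin1 with dentate granule cells was at 0.72. For the other members they were -0.53 for Grin2b with oligodendrocytes, 0.44 for Grin2c with dentate granule cells and 0.45 for Grin3a with astrocytes. Spearman's rho was 0.47 for Grin1 with CA1, 0.78 for Grin2d with CA3 and -0.44 for Grin2a with oligodendrocytes. It was -0.39 for Grin2b with oligodendrocytes, 0.35 for Grin2c with dentate granule cells and 0.09 for Grin3a with astrocytes. The part of these traits and scores in the levels was not tested beyond the GC offset and the choroid plexus and thalamus covariates.

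**Figure D5:**
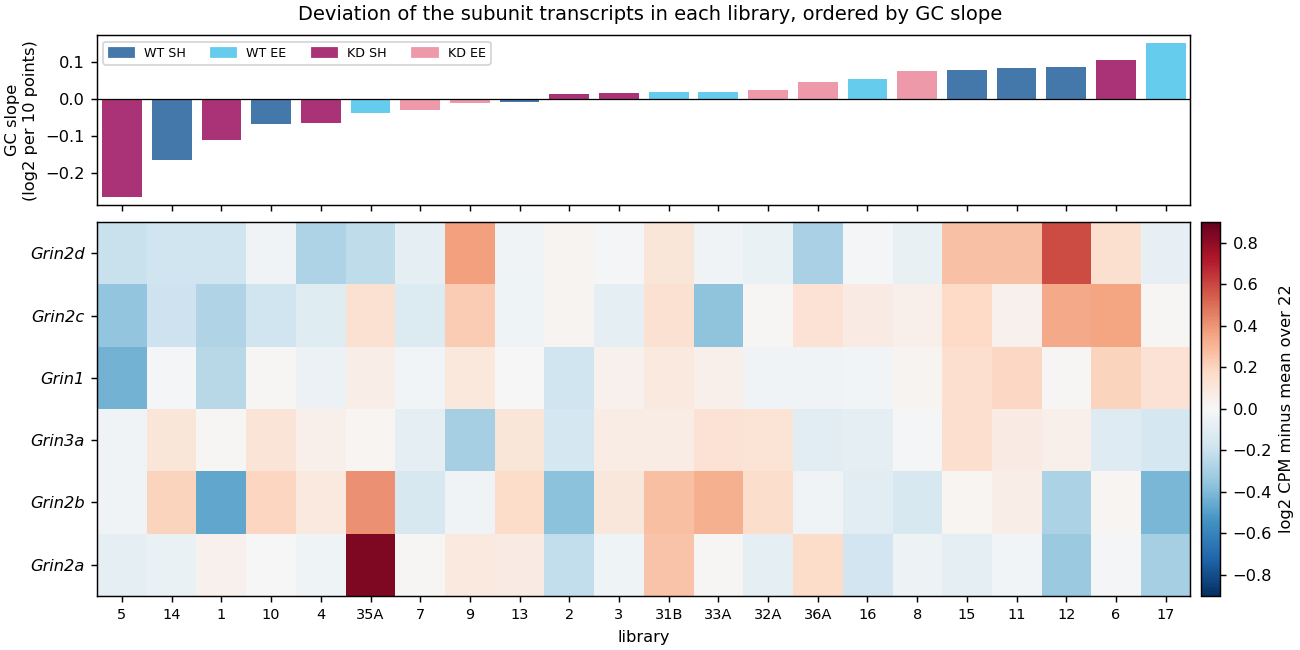
Top, GC slope of each library (log2 deviation per 10 points of GC), colored by group; below, log2 CPM of each subunit gene minus its mean over the 22 libraries, in the same order. Grin1 and Grin2c run from low on the left to high on the right, and the strongest single deviations are Grin2a in 35A and Grin2d in 12.

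The genes most like each member over the 22 libraries, by Pearson's r of log2 CPM among all genes tested, were Dctn1 (0.97), Mink1 (0.96) and Cers1 (0.94) for Grin1, and Med1 (0.88), Homer1 (0.87) and Nedd4l (0.86) for Grin2a. For Grin2b they were Pclo (0.95), Atrn (0.94) and Ncor1 (0.94), and for Grin2c Rap1gap (0.91), Dvl1 (0.86) and Xrcc1 (0.86). For Grin2d they were Nkx6-2 (0.83), Gal3st1 (0.80) and Arhgef40 (0.79), and for Grin3a Cntn1 (0.84), Foxj3 (0.81) and Slitrk1 (0.80). The genes nearest to Grin1, Grin2c and Grin2d had 58.0% to 64.3% GC in their longest transcripts and those nearest to Grin2a, Grin2b and Grin3a 36.9% to 48.7%, so that the nearest genes fell in the GC class of their member.

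Of 29 listed partners of the receptor, 28 were tested and 0 were called in the 7 comparisons. Dao, the D-serine degrading enzyme, was the one not tested, at 0.0401 to 0.557 CPM. The 4 scaffolds of the PSD-95 family (Dlg1 to Dlg4) had log2 fold changes between -0.08 and 0.13 in the 4 comparisons of pairs of groups, with none at an unadjusted p under 0.05. The 8 kinases and phosphatase that act on the receptor (Camk2a, Camk2b, Fyn, Src, Ptpn5, Csnk2a1, Csnk2a2, Dapk1) lay between -0.09 and 0.12, again with none at that level. Rest, the repressor of neuronal genes, lay between -0.02 and 0.09, the 2 cytoskeletal partners (Actn2, Nefl) between -0.30 and 0.07, and the 6 transport and surface partners (Kif17, Cask, Lin7a, Apba1, Ephb2, Neto1) between -0.18 and 0.18. At an unadjusted p under 0.05, 2 partners were higher and 1 lower with enrichment in WT, 2 were higher with enrichment in KD, 2 were lower in KD against WT under SH, and 0 were at that level in EE. The shares of all genes at that level, in either direction, were 8.65%, 9.63%, 5.76% and 2.61%. The counts of 3, 2, 2 and 0 of 28 partners were thus near the background. By direction, 21 of 28 partners were below 0 in KD against WT under SH, where 47.8% of all genes were. In EE it was 21 of 28, against 51.0%. With enrichment 17 of 28 were below 0 in WT and 15 in KD, against 47.9% and 49.1%. In the 17 libraries 24 of 28 were below 0 in WT, against 50.5%. The lean below 0 in KD under SH was thus not particular to the members.

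The partners with the lowest unadjusted p in these comparisons were Kif17, Slc7a10 and Neto1. Kif17, the kinesin that carries GluN2B-containing vesicles in dendrites, was at 25.5 ± 1.202 CPM in WT SH (SD, n = 6), 28.9 ± 1.27 in WT EE (n = 5), 23.4 ± 2.80 in KD SH (n = 6) and 26.1 ± 1.03 in KD EE (n = 5). Its WT EE libraries spanned 26.8 to 29.9 CPM and its WT SH libraries 24.3 to 27.6, so that the groups met only at their edges. The log2 fold change with enrichment was 0.18 in WT (SE 0.07, unadjusted p = 0.0138, adjusted p = 0.436 in edgeR) and 0.15 in KD (SE 0.07, adjusted p = 0.500031), and KD against WT in EE it was -0.15 (SE 0.07, adjusted p = 0.999994). Slc7a10, the transporter Asc-1 for D-serine and glycine, was at 26.9 ± 3.34 CPM in WT SH (SD, n = 6), 33.1 ± 7.16 in WT EE (n = 5), 26.1 ± 4.13 in KD SH (n = 6) and 32.7 ± 5.22 in KD EE (n = 5). Its log2 fold change with enrichment was 0.30 in WT (SE 0.13, adjusted p = 0.497 in edgeR) and 0.33 in KD (SE 0.13, unadjusted p = 0.0182, adjusted p = 0.478). In the 17 libraries it was called in both, at 0.57 in WT (adjusted p = 0.000777) and 0.45 in KD (adjusted p = 0.0081). That set leaves out 35A, 31B and 9 of EE, where the choroid plexus markers summed to 58.1, 68.6 and 208 CPM. It also leaves out 12 and 2 of SH, at 1867 and 2920 CPM. Slc7a10 was at 24.2 and 26.8 CPM in 35A and 31B, and at 36.1 to 40.2 CPM in the other WT EE libraries. The part of choroid plexus in its level was not tested. Neto1, an auxiliary protein of the receptor, was lowest in p for genotype in SH, at 108 ± 8.42 CPM in WT SH (SD, n = 6) and 94.998 ± 13.2 in KD SH (n = 6), with a log2 fold change of -0.18 (SE 0.08, unadjusted p = 0.0384, adjusted p = 0.811 in edgeR).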

How the data were processed

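Whole hippocampal polyA RNA was sequenced on 24 libraries of 4 groups, taken from the labels. The authors trimmed the reads, aligned them to GRCm38 with STAR (2.5 in the submitters' processing notes) and counted reads on genes with HTSeq, ignoring strand. The deposited files hold raw counts for each of 49568 gene symbols, without normalization. A table of counts divided by size factors for 17 libraries was not used here. Libraries 33B and 34B were left out. The fits used 1 mean for each group in edgeR 4.0.16 (R 4.3.3): filterByExpr with a minimum count of 10, TMM scaling, glmQLFit and glmQLFTest, and Benjamini-Hochberg adjustment over 18482 genes, calling genes whose adjusted p was at most 0.05 and whose log2 fold change reached 0.38 in either direction. Intervals are at the 95% level. Correlations used log2 CPM with a prior count of 2. Ratios were compared by exact permutation tests (scipy 1.17.1) and figures drawn with matplotlib 3.10.9. The 3-count floor covers counting error only. No 2 of the 60 pairs of libraries within groups held identical counts. Exon lengths are from GENCODE M21, and promoter entries were found for 3 of 6 members.

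The members, lists and tests were chosen with earlier results of these data known. Named were all members, Grin3b, any partner called and otherwise the partner with the lowest unadjusted p in each comparison of a pair of groups, and the 3 genes with the highest r to each member. The downstream partners are counted but their values are not reported here. The edgeR test of housing in WT was checked on simulated counts. Of 100 genes changed by a log2 of 1 it called 96, and of 100 changed by 0.5 it called 65, with 5 false calls. Changes as small as those of the members were not simulated. Alternatives were the 17 and the 24 libraries, no lettered libraries, no libraries 12 and 14, each library left out, other size factors, total counts, DESeq2 1.42.0, other filters, only the groups compared, choroid plexus and thalamus scores as covariates, and, chosen after seeing the data, a GC offset and leaving out 12 and 35A.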

Additional observations from a re-analysis of the deposited data

Results flagged for a closer look

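Of 28 sets of a member or the ratio in a group that were examined for a library apart from the rest by Dixon's criterion, 2 had one, and chance gives about 1 in 20. Grin2c was at 49.95 CPM in library 33A, below the other WT EE libraries, which were at 65.0 to 70.8 CPM. The ratio of Grin2a to Grin2b counts was 0.352 in library 32A, below the other KD EE libraries, which were at 0.446 to 0.475. Grin2b was at 814 CPM in 32A, the highest of its group.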

How the results depend on the processing

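No member was called in any comparison under any alternative, and the lowest adjusted p was 0.0694, for Grin2a and housing over both genotypes with the choroid plexus score as a covariate. Of 42 pairs of a member and a comparison, 23 kept their sign under every alternative and 19 changed it under at least 1. Those that kept it include Grin1, Grin2d and Grin3a for genotype in SH, and those that changed it include Grin2a for housing in WT. The number of all genes called depended on the setting. For housing in WT it was 0, but 664 in the 17 libraries, 1 in the 24, 18 with DESeq2 and 7 with no filter. It was 314 without the lettered libraries, a setting that leaves only 2 libraries in WT EE. For housing in KD it was 0, but 325 in the 17 libraries and 4 with DESeq2, and 0 to 1 with any library left out (1 without library 9). For genotype in SH it was 0, but 2 with DESeq2. For genotype in EE it was 0, but 1 in the 17 libraries, and 0 to 1 with any library left out (1 without library 9). For housing over both genotypes it was 27, but 720 in the 17 libraries, 90 in the 24, 80 without the lettered libraries, 4 without 12 and 14, 302 without 12 and 35A, 44 with DESeq2 size factors, 50 with total counts, 214 with DESeq2, 209 with no filter, 45 with at least 10 counts in every library, 11 and 205 with the choroid plexus and thalamus scores, 66 with the GC offset, and 2 to 287 with any library left out (2 without library 1, 287 without 31B). Some settings hold fewer libraries, and the causes of these changes were not tested. Levels per kb of the longest transcript in place of merged exons were 90.1 for Grin1, 21.1 for Grin2a, 3.65 for Grin2d and 6.98 for Grin3a. The genes most like a member were a different set by Spearman's rho or with group means taken off, with 0 to 2 of each 3 shared. Reads shared with Grin1os limit Grin1, and 5 or 6 libraries in a group limit all comparisons.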

Other observations

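The libraries that failed quality control were outside all comparisons. In 33B (WT EE) Grin1 was at 288 CPM, Grin2a at 303, Grin2b at 781, Grin2c at 34.7, Grin2d at 14.2 and Grin3a at 41.2 CPM by total counts. Of these Grin1, Grin2c, Grin2d and Grin3a were below all 12 SH libraries, with SH minima of 289, 51.0, 16.1 and 47.0 CPM, and Grin2a and Grin2b were within their range. The exact Poisson interval, which covers counting error only, was 32.04 to 37.4 CPM for Grin2c and 280 to 296 CPM for Grin1. For Grin2d it was 12.6 to 16.07 CPM, against an SH minimum of 16.06. The gaps of Grin1 and, narrowly, of Grin2d are thus within counting error. In 34B (KD EE) the members had 0 to 8 counts each, and no difference was detectable at this depth.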
